A study of Mus musculus with 12 samples.

Results

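Esm1, Mmp10, Slc17a6, Pdzk1 and Jaml are 5 genes that T cell biology does not usually list among effector genes, yet whose array signal was far higher in effector than in regulatory CD4 T cells of the mouse. They were chosen by name from earlier results of the same arrays, for their high signal in effector cells (Teff) relative to regulatory cells (Treg), so that difference is described here and not tested. The 5 genes are 5 of 12119 genes with a probe bright enough to test and of 17759 genes with a symbol on the array. They have 9 probes between them, and each gene is read from its probe of highest mean. All 5 passed the filter on dim probes, and their main probes lay above the array median on all 12 arrays, Treg arrays included. The genes were not chosen on the effect of genotype, the spread between arrays, the agreement of probes or the genes that behaved alike. The genotype comparisons use the same arrays as the choice, however, so they are not independent of it.

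The arrays compare 4 sorted populations, in 3 replicates each: CKO Teff, Ctrl Teff, CKO Treg and Ctrl Treg. CKO cells came from C57BL/6 donors labelled Blimp1 CKO, and Ctrl cells from Blimp1-sufficient C57BL/6 donors; the labels name neither the Cre driver nor the deleted part of the gene. Naive CD4 T cells of low CD44 expression from both donors, which carried a green fluorescent Foxp3 reporter and different allotype marks, were mixed in equal numbers and transferred into RAG1-/- hosts, which lack T and B cells of their own. After 6 to 8 weeks, CD4 cells were sorted by allotype and by the reporter into Foxp3+ cells (Treg, which the submitters call pTreg, for regulatory cells that arise in the periphery) and Foxp3- cells (Teff). Tissue was pooled from spleen, mesenteric lymph nodes and lamina propria of the large intestine, the mice were 8 to 12 weeks old, and all cells were stimulated in vitro with PMA and ionomycin for 4 h. Both genotypes thus share hosts, and every group was restimulated and expanded in an empty host. Nothing in the labels says that replicates of a group came from separate animals, and a p-value here reflects only how far these samples spread, which may be technical.

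As background, the 5 genes encode proteins of unrelated kinds. Esm1 encodes endocan, a secreted dermatan sulfate proteoglycan best known from endothelial cells, which can bind the integrin LFA-1. Mmp10 encodes stromelysin-2, a secreted matrix metalloproteinase that TIMP1 inhibits. Jaml encodes a junctional adhesion molecule-like receptor of leukocytes that binds CXADR on epithelial cells and costimulates T cells, in particular gamma delta T cells. Slc17a6 encodes VGLUT2, the transporter that loads glutamate into synaptic vesicles of neurons, and Pdzk1 encodes a scaffold with PDZ domains that holds transporters at the brush border of epithelia. PMA and ionomycin switch on the transcription factors AP-1 and NFAT. Blimp1, encoded by Prdm1, is a transcriptional repressor of differentiated lymphocytes.

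The stretches just upstream of the start sites, which hold the core promoter, were read for 4 short motifs: TGANTCA of AP-1, TGGAAA of NFAT, AGGTCA of the ROR family, to which the Th17 factor ROR gamma t belongs, and GTGAAAG of Blimp1. Both strands of the 250 bases before each start were searched. Windows for all 5 genes were found in the RefSeq promoter table of build GRCm38.p6, 7 in all, because Slc17a6 and Pdzk1 have 2 starts each. The sequences of Esm1, Mmp10, Jaml and the first start of Pdzk1 are shown because the comparisons below are about these genes. Both starts of Cd160 are shown because it is the nearest neighbour of Pdzk1 and shares its pattern. Bases run 5′ to 3′ on the strand of the gene and end at the base before the start, and capitals mark a motif match on either strand.
Esm1 upstream, chr13:113209409-113209658, plus strand: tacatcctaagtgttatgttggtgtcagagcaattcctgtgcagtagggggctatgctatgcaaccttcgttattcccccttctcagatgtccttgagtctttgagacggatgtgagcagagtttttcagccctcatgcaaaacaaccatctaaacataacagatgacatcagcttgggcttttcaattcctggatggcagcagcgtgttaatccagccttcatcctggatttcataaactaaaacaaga
Mmp10 upstream, chr9:7502092-7502341, plus strand: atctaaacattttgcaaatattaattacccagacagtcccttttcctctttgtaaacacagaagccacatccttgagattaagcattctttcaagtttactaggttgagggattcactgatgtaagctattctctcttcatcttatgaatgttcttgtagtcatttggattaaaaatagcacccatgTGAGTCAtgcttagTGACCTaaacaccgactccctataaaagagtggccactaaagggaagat
Jaml upstream, chr9:45078933-45079182, plus strand: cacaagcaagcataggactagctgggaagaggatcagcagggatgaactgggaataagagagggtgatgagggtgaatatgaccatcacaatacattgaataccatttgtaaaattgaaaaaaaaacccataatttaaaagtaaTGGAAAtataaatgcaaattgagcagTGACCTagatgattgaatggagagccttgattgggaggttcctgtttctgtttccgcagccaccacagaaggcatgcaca
Pdzk1 first start, chr3:96829815-96830064, plus strand: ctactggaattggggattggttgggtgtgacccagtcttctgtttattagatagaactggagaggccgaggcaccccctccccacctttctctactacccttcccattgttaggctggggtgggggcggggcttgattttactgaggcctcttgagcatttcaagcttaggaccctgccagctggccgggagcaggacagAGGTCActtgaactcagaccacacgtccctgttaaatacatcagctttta
Cd160 first start, chr3:96829352-96829601, minus strand: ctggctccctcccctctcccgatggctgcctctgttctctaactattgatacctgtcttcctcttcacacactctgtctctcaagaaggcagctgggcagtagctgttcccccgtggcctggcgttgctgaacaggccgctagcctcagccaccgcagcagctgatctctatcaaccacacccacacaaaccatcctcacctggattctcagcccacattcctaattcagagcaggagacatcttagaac
Cd160 second start, chr3:96814522-96814771, minus strand: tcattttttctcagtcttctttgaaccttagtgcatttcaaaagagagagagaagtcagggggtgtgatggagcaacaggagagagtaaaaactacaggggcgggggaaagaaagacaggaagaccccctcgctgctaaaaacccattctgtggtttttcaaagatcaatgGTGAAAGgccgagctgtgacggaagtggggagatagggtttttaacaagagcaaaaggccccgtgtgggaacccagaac
The Mmp10 window holds TGAGTCA, an AP-1 match, at 63 to 57 bases before the start and TGACCT, a ROR match on the other strand, at 49 to 44 bases. Jaml has an NFAT match at 106 to 101 bases and a ROR match at 80 to 75 bases. The first Pdzk1 start has a ROR match at 50 to 45 bases, and both Slc17a6 windows hold 1 NFAT match. Esm1 and the second Pdzk1 start hold none of the 4. A Blimp1 match was in 0 of the 7 windows of the 5 genes and in that of the second Cd160 start, at 79 to 73 bases. Of all 32851 windows of the same length, 6.75% hold the AP-1 motif, 18.6% the NFAT motif, 14% the ROR motif and 3.57% the Blimp1 motif, so such short matches are common and do not mark sites. No motif overlapped another in these windows.

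Foxp3, by which the cells were sorted, had 4.42 to 4.85 on its brightest probe in Teff and 7.29 to 8.94 in Treg, while its other 3 probes overlapped between the cell types. Prdm1, the targeted gene, was higher on the arrays labelled CKO: its brighter probe had at least 7.83 in CKO Teff against at most 5.39 in Ctrl Teff, and at least 8.47 in CKO Treg against at most 6.07 in Ctrl Treg. Whether that probe lies inside the deleted part is unknown here, so it does not check the labels, and CKO and Ctrl below mean the arrays so labelled. Markers of CD4 T cells, 9 of 12 listed genes on the array, averaged 9.90 to 10.10 in CKO Teff, 10.45 to 10.52 in Ctrl Teff, 10.07 to 10.28 in CKO Treg and 10.23 to 10.78 in Ctrl Treg, although Cd4 itself read only 4.95 to 6.40. Every CKO Teff array thus lay below every Ctrl Teff array for these markers, with a median genotype difference of −0.46 in Teff over 9 genes, 0 of them positive. In Treg the median genotype difference of these markers was −0.34, with 2 of 9 positive. The part of these shifts in the genotype differences below was not tested. Markers of basophils and mast cells averaged 8.33 and 7.87 in CKO Teff 1 and 2 and 6.07 in Ctrl Teff 2, against at most 5.52 on the other 9 arrays. Neutrophil markers averaged 8.94, 9.41 and 9.97 on the same 3 arrays, and were also high in Ctrl Treg 1 and 3, at 9.06 and 8.75. On the remaining arrays they averaged 5.94 to 8.20, so these markers do not set the 3 arrays apart. Values without these 3 arrays are given beside the results they enter, as a choice made after seeing the data.

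Esm1 had a deposited log2 intensity of 9.88, 9.29 and 10.12 in CKO Teff and of 10.19, 9.88 and 9.63 in Ctrl Teff. In CKO Treg it had 6.92, 6.22 and 6.42, and in Ctrl Treg 6.41, 6.36 and 7.68. The 2 cell types did not overlap: the lowest Teff array lay 1.61 above the highest Treg array, which was Ctrl Treg 3, alone among Treg arrays above 7. Group means were 9.76 ± 0.42 (SD, n = 3) in CKO Teff, 9.90 ± 0.28 in Ctrl Teff, 6.52 ± 0.36 in CKO Treg and 6.82 ± 0.75 in Ctrl Treg. Teff exceeded Treg by 3.24 ± 0.36 (SE) in CKO cells and by 3.08 ± 0.36 in Ctrl cells, which is 9.48-fold and 8.45-fold. By this difference Esm1 ranked 17 among the 12119 genes in CKO cells and 3 in Ctrl cells. In bulk samples such as these, fewer cells that express a gene and less RNA per cell cannot be told apart.

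Mmp10 had 9.48, 9.22 and 9.83 in CKO Teff and 10.69, 9.18 and 8.91 in Ctrl Teff. It had 8.09, 8.12 and 6.69 in CKO Treg and 6.48, 6.86 and 7.23 in Ctrl Treg. Teff was above Treg throughout, with a gap of 0.79, but Ctrl Teff 1 stood well above every other array and CKO Treg 1 and 2 stood above the other Treg arrays. The mean was 9.51 ± 0.31 in CKO Teff, 9.59 ± 0.96 in Ctrl Teff, 7.63 ± 0.82 in CKO Treg and 6.86 ± 0.37 in Ctrl Treg (SD, n = 3 each). The difference between Teff and Treg was 1.88 ± 0.49 (SE) in CKO cells, or 3.67-fold, and 2.74 ± 0.49 in Ctrl cells, or 6.67-fold. Mmp10 ranked 75 in CKO cells and 10 in Ctrl cells by this difference.

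Jaml, the adhesion receptor, had 10.50, 11.62 and 10.46 in CKO Teff and 10.04, 11.66 and 10.30 in Ctrl Teff. Its Treg values were 7.22, 7.08 and 7.73 in CKO Treg and 7.67, 7.15 and 8.38 in Ctrl Treg. On this probe the number 2 array was the highest of its group in both Teff groups and the lowest in both Treg groups. The mean was 10.86 ± 0.66 in CKO Teff, 10.67 ± 0.87 in Ctrl Teff, 7.34 ± 0.34 in CKO Treg and 7.73 ± 0.62 in Ctrl Treg (SD, n = 3 each), so that Teff exceeded Treg 11.4-fold in CKO cells (3.52 ± 0.47, SE) and 7.65-fold in Ctrl cells (2.94 ± 0.47). A second Jaml probe gave 3.40 ± 0.60 in CKO cells and 2.65 ± 0.60 in Ctrl cells, but there CKO Treg 2 was the highest of CKO Treg, at 7.88. Jaml is also made by neutrophils and monocytes, and after group means were removed its r over the 12 arrays was 0.74 with the neutrophil markers, and nearly as high with those of macrophages and dendritic cells (0.69), fibroblasts (0.69), epithelial cells (0.65) and gamma delta T cells (0.63). Across cell types the order was another: Ctrl Teff 3, with 6.28 for the neutrophil markers, had 10.30 for Jaml, and Ctrl Treg 1, with 9.06 for these markers, had 7.67. The part of these markers in the Jaml values was not tested. Without the 3 Teff arrays highest in basophil and neutrophil markers (CKO Teff 1 and 2 and Ctrl Teff 2) the difference was 3.11 in CKO cells and 2.44 in Ctrl cells. The CKO value then rested on CKO Teff 3 alone. Ctrl Treg 1 and 3, also high in neutrophil markers, stayed in.

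Slc17a6, the vesicular glutamate transporter, had 8.23, 7.15 and 6.58 in CKO Teff and 8.59, 7.30 and 7.55 in Ctrl Teff. It had 5.02, 5.52 and 5.13 in CKO Treg and 5.34, 4.93 and 5.32 in Ctrl Treg, little above the array medians of 4.66 to 4.68. Treg arrays lay close together while Teff arrays were spread, with number 1 the highest in both genotypes. Its mean was 7.32 ± 0.84 in CKO Teff, 7.81 ± 0.68 in Ctrl Teff, 5.22 ± 0.26 in CKO Treg and 5.2 ± 0.23 in Ctrl Treg (SD, n = 3 each). Teff exceeded Treg 4.28-fold in CKO cells (2.10 ± 0.41, SE) and 6.12-fold in Ctrl cells (2.61 ± 0.41), and a second probe gave 2.22 ± 0.39 and 2.50 ± 0.39. Without the 3 marker-rich arrays the CKO value was 1.35, from CKO Teff 3 alone, and the Ctrl value was 2.87.

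Pdzk1, the scaffold protein, had 7.40, 6.78 and 6.77 in CKO Teff and 8.01, 7.49 and 7.34 in Ctrl Teff. In CKO Treg it had 6.49, 5.49 and 5.78, and in Ctrl Treg 4.83, 4.79 and 5.39. Every CKO Treg array lay above every Ctrl Treg array, and the CKO cell types nearly met, since CKO Treg 1 was 0.28 below CKO Teff 3. The mean was 6.98 ± 0.36 in CKO Teff, 7.62 ± 0.35 in Ctrl Teff, 5.92 ± 0.51 in CKO Treg and 5.0 ± 0.33 in Ctrl Treg (SD, n = 3 each). Teff exceeded Treg 2.08-fold in CKO cells (1.06 ± 0.29, SE) and 6.12-fold in Ctrl cells (2.61 ± 0.29), and the rank among all genes was 258 in CKO cells and 14 in Ctrl cells. A second probe gave 1.03 ± 0.24 in CKO cells and 2.50 ± 0.24 in Ctrl cells. The remaining Pdzk1 probe was dim, above the array median on 8 of the 12 arrays, and gave 0.33 ± 0.21 and 0.79 ± 0.21.

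**Figure D1:**
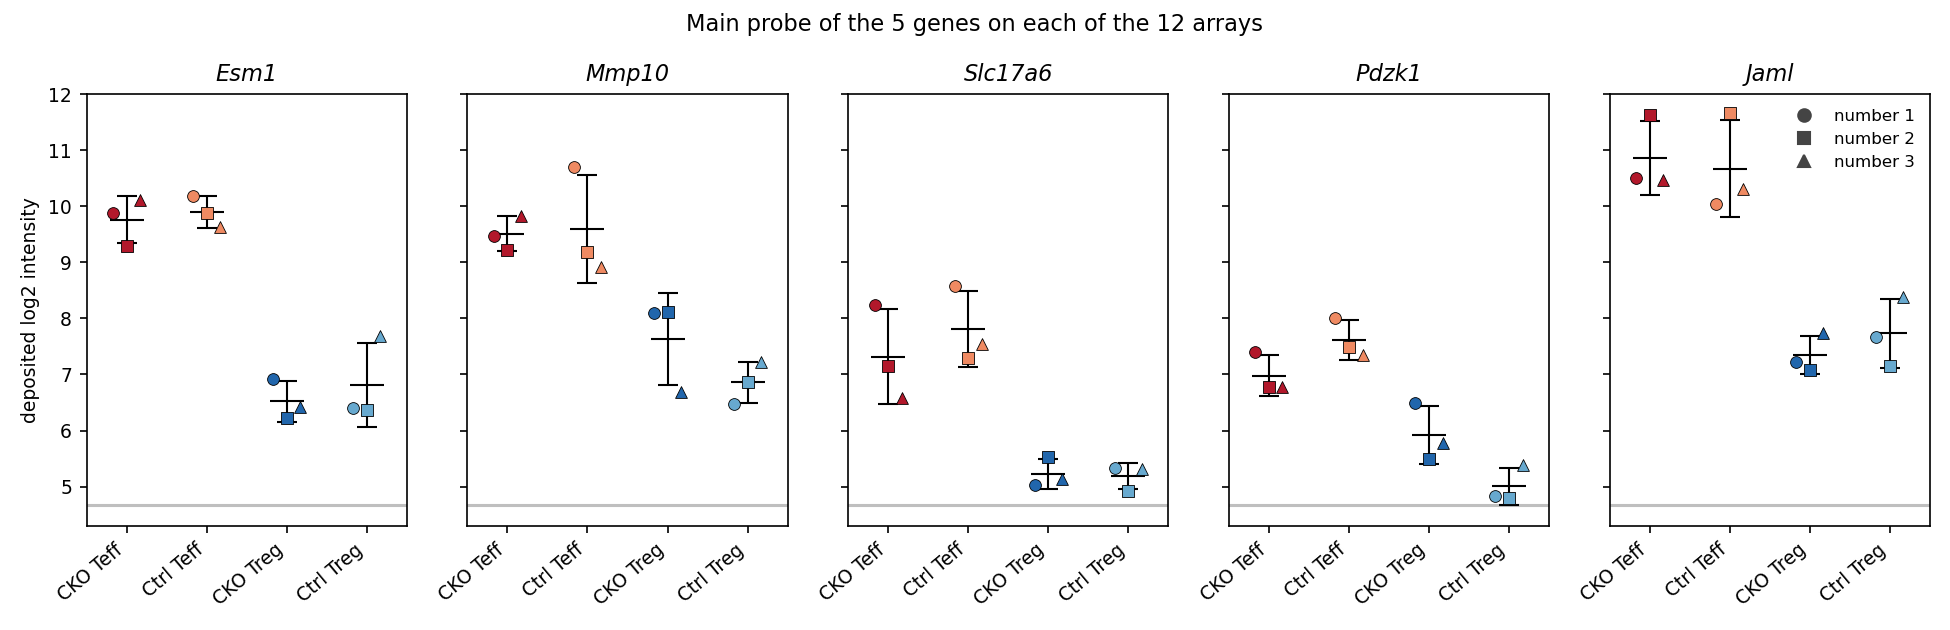
Deposited log2 intensity (vertical axis) of the main probe of each gene on each array; symbols are replicate numbers, horizontal bars the group mean, error bars the SD (n = 3) and the grey line the range of array medians. For each of the 5 genes all 6 Teff arrays lie above all 6 Treg arrays, with the smallest gap, 0.28, for Pdzk1.

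The order of the groups was therefore the same in outline for the 5 genes, both Teff groups above both Treg groups, while neighbours of the same cell type had overlapping arrays, except CKO Treg above Ctrl Treg for Pdzk1. All 6 Teff arrays exceeded all 6 Treg arrays for 5 of 5 genes and for 0.957% of all genes tested. In the limma fit, 0.182% of genes were called higher in Teff in CKO cells and 0.413% in Ctrl cells (Benjamini-Hochberg adjusted p under 0.05). Because these differences chose the 5 genes, nothing is read from those counts. The 2 cell-type differences share no array, but the choice may have rested on both.

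The genotype comparison set arrays labelled CKO against arrays labelled Ctrl within Teff and within Treg, and none of the 5 genes passed in either. In Teff, 0 of 5 genes passed in limma (background 0.0165% of genes called), and 0 had an unadjusted p under 0.05, beside 4.17% of all genes. In Treg, 0 of 5 passed (background 0.0990%), with 1 at an unadjusted p under 0.05, beside 5.33% of all genes. For the difference between the genotype differences, 0 of 5 passed (background 0.0165%), again with 1 at an unadjusted p under 0.05, beside 3.48% of all genes, and both were Pdzk1. With same-numbered CKO and Ctrl arrays paired, 0 of 5 passed in Teff, in Treg and in their difference (background 0.0990%, 2.18% and 0.0413%), with 2 of 5 at an unadjusted p under 0.05 in each. Over all genes 10.4%, 14.1% and 11.4% reached that unadjusted p with pairs.

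Pdzk1 was lower in CKO Teff in every same-numbered pair, by −0.61, −0.72 and −0.58, and higher in CKO Treg in every pair, by 1.66, 0.70 and 0.40. Of all genes, 17.7% were lower in 3 of 3 Teff pairs, 17.5% were higher in 3 of 3 Treg pairs and 2.86% did both. Every CKO Treg array was above every Ctrl Treg array for 5.96% of genes. The difference between genotypes was −0.64 ± 0.29 in Teff (95% interval −1.29 to 0.02; limma adjusted p = 1.00) and 0.92 ± 0.29 in Treg (95% interval 0.27 to 1.57; adjusted p = 0.557). The Teff difference minus the Treg difference was −1.55 ± 0.42 (95% interval −2.48 to −0.63; unadjusted p = 0.00359, limma adjusted p = 1.00). On the second probe it was −1.48 ± 0.34 and on the dim probe −0.47 ± 0.29, so the sign was shared by 3 of 3 probes. With pairs the adjusted p was 0.318 in Teff, 0.0685 in Treg and 0.133 for their difference, still above the threshold of 0.05. Without the 3 marker-rich arrays the Teff difference was −0.91. These comparisons share their arrays with the choice of Pdzk1 for Teff over Treg, so they are not independent of it. The Teff difference minus the Treg difference is also the Teff-over-Treg difference in CKO cells (1.06) minus that in Ctrl cells (2.61). A choice that rested more on Ctrl cells would by itself lower that value, so its p-values are not read as support.

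Mmp10 in Treg was higher in CKO in 2 of 3 pairs, by 1.61 and 1.26, and lower in the other, by −0.54. In Treg the estimate was 0.78 ± 0.49, with a 95% interval of −0.30 to 1.86, and 1.25 without CKO Treg 3. In Teff the pairs ran from −1.21 to 0.92 and the estimate was −0.08 ± 0.49 (95% interval −1.16 to 1.00). The direction in Teff turned without CKO Teff 2 (0.06), without Ctrl Teff 1 (0.46), or without the 3 marker-rich arrays (0.031).

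Slc17a6 was lower in CKO Teff in 3 of 3 pairs, by −0.36, −0.14 and −0.97, a mean of −0.49 ± 0.41 (95% interval −1.41 to 0.43). With pairs the unadjusted p was 0.0437 and the limma adjusted p 0.460. The size rested on single arrays: it was −0.94 without CKO Teff 1, −0.12 without CKO Teff 3, −0.10 without Ctrl Teff 1, −0.75 without Ctrl Teff 2 and −1.49 without the 3 marker-rich arrays. In Treg the difference was 0.03 ± 0.41 (95% interval −0.89 to 0.94), and it turned without CKO Treg 2 (−0.12) or Ctrl Treg 2 (−0.10).

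Jaml was lower in CKO Treg in 3 of 3 pairs, by −0.44, −0.07 and −0.65, as were 18.2% of all genes. The mean was −0.39 ± 0.47 (95% interval −1.43 to 0.65), with a limma adjusted p of 0.265 with pairs, and in Teff it was 0.19 ± 0.47 (95% interval −0.85 to 1.23). The Treg value was −0.25 without CKO Treg 2, −0.68 without Ctrl Treg 2 and −0.06 without Ctrl Treg 3. In Teff it was 0.29 without the 3 marker-rich arrays, and its sign turned without CKO Teff 2 (−0.19) or Ctrl Teff 1 (−0.12). On the second Jaml probe the Treg pairs were −0.79, 0.66 and −1.55, not all of one sign.

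Esm1 differed by −0.13 ± 0.36 between genotypes in Teff (95% interval −0.93 to 0.66) and by −0.30 ± 0.36 in Treg (95% interval −1.09 to 0.49). Its pairs had both signs in each cell type, −0.31, −0.58 and 0.49 in Teff and 0.51, −0.15 and −1.27 in Treg. The Teff difference turned without CKO Teff 2 (0.10), without Ctrl Teff 1 (0.01) or without the 3 marker-rich arrays (0.21), and the Treg difference turned without Ctrl Treg 3 (0.13). The Teff interval holds the value that Pdzk1 had in Teff, so it does not show that the genotypes are alike.

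**Figure D2:**
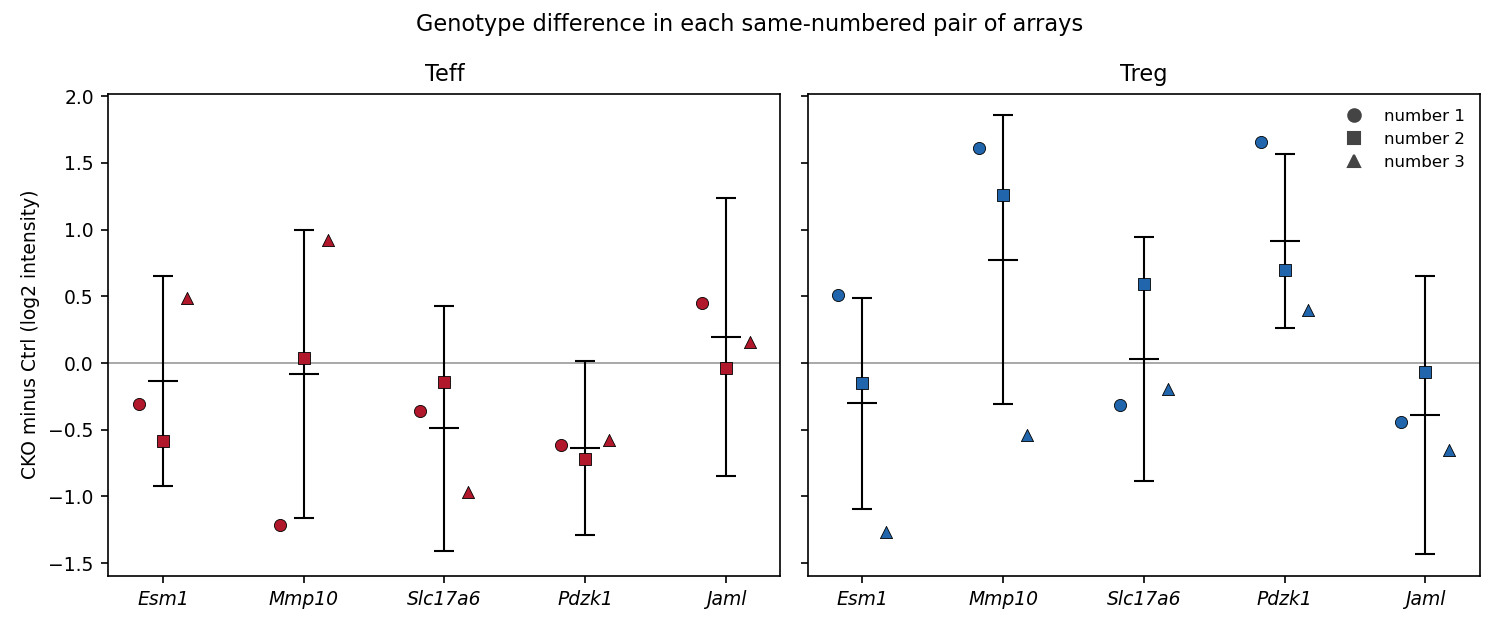
CKO minus Ctrl in log2 intensity (vertical axis) for each same-numbered pair of arrays (symbols) of the 5 genes, in Teff (left) and Treg (right); horizontal bars are the limma estimate and error bars its 95% interval. Pdzk1 lies below 0 in all 3 Teff pairs and above 0 in all 3 Treg pairs, and its Treg interval is the one of the 10 that excludes 0.

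Within groups, on the main probes, Jaml had lower r with each of the other 4 genes than these had with each other, though by little for Esm1. Over the 12 arrays the 10 pairs of genes had r from 0.76 to 0.93, which the gap between cell types fixes. After group means were removed, the 6 pairs among Esm1, Mmp10, Slc17a6 and Pdzk1 had r from 0.10 to 0.73, with Esm1 and Pdzk1 at 0.73, Esm1 and Mmp10 at 0.52, and Pdzk1 at 0.48 with both Mmp10 and Slc17a6. The 4 pairs with Jaml had r from −0.42 for Mmp10 to 0.08 for Esm1, the latter close to the 0.10 of Esm1 and Slc17a6. The second Jaml probe, which ordered the CKO Treg arrays differently, was not used here. These are descriptions over 12 arrays that share groups and hosts.

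For each gene the 5 genes with the highest Pearson r over the 12 arrays were taken, with r after removal of group means beside it, since the gap between cell types alone gives a high r over all arrays. They came to 22 different genes in 25 places. Mmp10 was most like Timp1, which encodes an inhibitor of matrix metalloproteinases (r = 0.98, and 0.96 within groups), and next like Il17f, a Th17 cytokine (r = 0.96, and 0.82 within groups). Il17a, the phosphatase gene Dusp2 and the sphingosine kinase gene Sphk1 followed (r = 0.91 each, and 0.45, 0.46 and 0.47 within groups). Timp1 had 8.60, 8.11 and 8.93 in CKO Teff, 9.71, 8.34 and 7.69 in Ctrl Teff, 7.23, 7.86 and 5.51 in CKO Treg, and 5.81, 5.89 and 6.84 in Ctrl Treg. Its highest array, Ctrl Teff 1, was also the highest for Mmp10, and CKO Treg 3 lay below the other CKO Treg arrays for both. The genotype pairs of Timp1 in Treg, 1.42, 1.97 and −1.32, had the signs of those of Mmp10.

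Pdzk1 was most like Il17f (r = 0.95, and 0.71 within groups) and Cd160 (r = 0.95, and 0.72 within groups), a receptor of the immunoglobulin superfamily on activated lymphocytes. Ccdc189, Themis, a regulator of T cell receptor signalling, and Il17a followed (r = 0.94, 0.93 and 0.93, and 0.58, 0.84 and 0.20 within groups). Cd160 had 13.02, 12.95 and 13.22 in CKO Teff, 13.28, 13.26 and 12.94 in Ctrl Teff, 12.43, 11.16 and 11.17 in CKO Treg, and 10.21, 9.44 and 10.95 in Ctrl Treg. Its Teff arrays lay within a narrow band near the top of the scale, and CKO Treg lay above Ctrl Treg on every array, as for Pdzk1. Cd160 was higher in CKO in 3 of 3 Treg pairs, by 2.22, 1.72 and 0.21, a difference of 1.39 ± 0.39 that did not pass (limma adjusted p = 0.440, and 0.0699 with pairs). In Teff it differed by −0.09 ± 0.39.

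**Figure D3:**
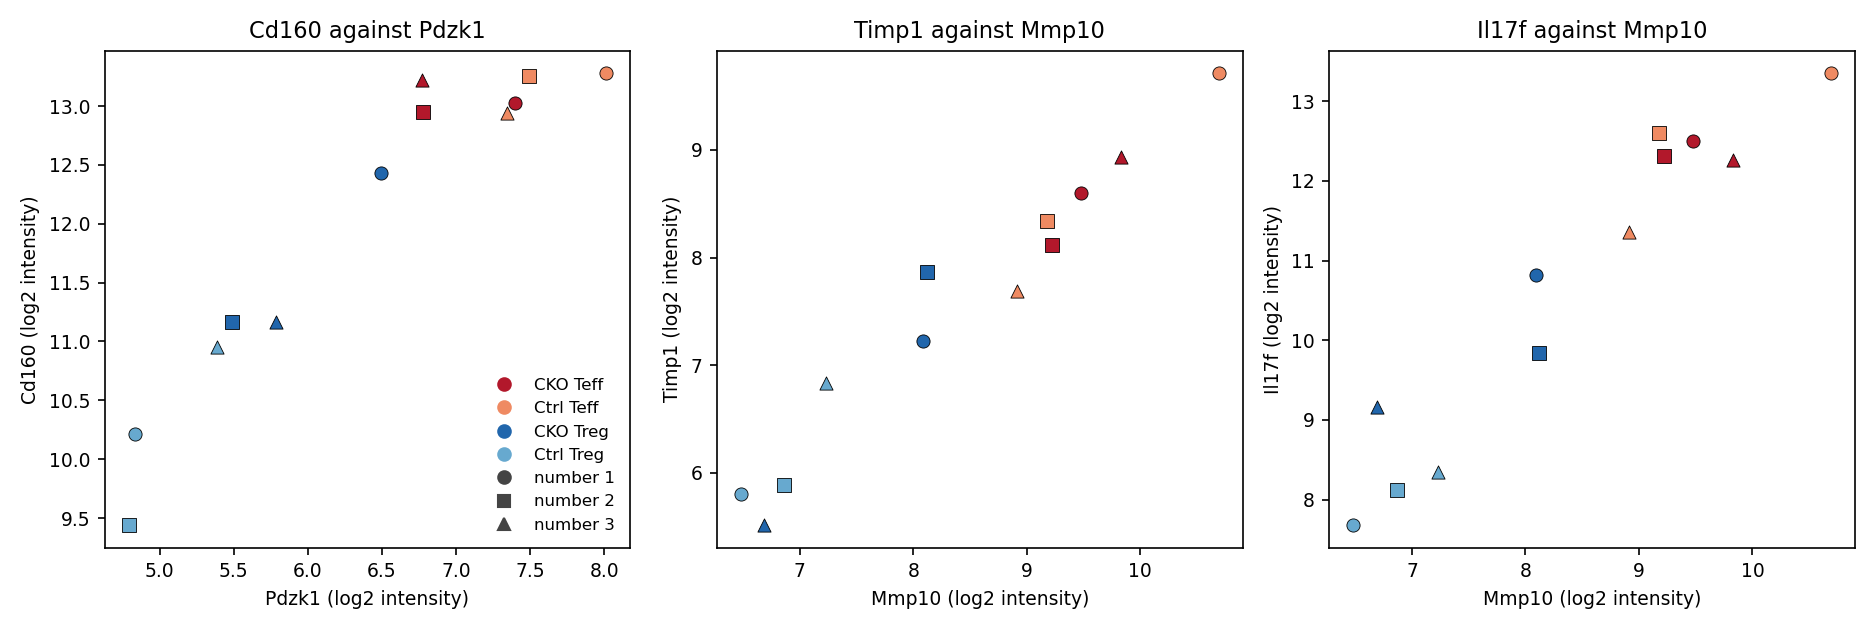
Log2 intensity per array of Cd160 against Pdzk1 (left), Timp1 against Mmp10 (middle) and Il17f against Mmp10 (right); colours are groups and symbols replicate numbers. The arrays line up in each panel, with r of 0.95, 0.98 and 0.96 over 12 arrays, and CKO Treg lies between Teff and Ctrl Treg on the Cd160 axis.

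Esm1 was most like Dusp6, a phosphatase that restrains ERK (r = 0.98, and 0.79 within groups), Ehd3, Ccno, Il2 and Mgll (r = 0.93 to 0.96). Within groups Ehd3, Il2 and Mgll had r = 0.40, 0.25 and 0.11. Ccno, an atypical cyclin, kept r = 0.85 within groups and had 6.78, 6.07 and 6.72 in CKO Teff, 7.73, 7.03 and 7.07 in Ctrl Teff, 5.14, 4.75 and 5.25 in CKO Treg, and 5.32, 4.89 and 5.94 in Ctrl Treg. Like Esm1, it was highest among Treg arrays in Ctrl Treg 3. Jaml was most like Ehd3 (r = 0.98, and 0.73 within groups), Mcoln2, the chemokine gene Ccl5, Nmrk1 and Arap2 (0.73 to 0.85 within groups). Slc17a6 was most like Smad1 (r = 0.94, and 0.86 within groups), Ier3, Cldnd2, Setbp1 and Serpinb1a (0.65 to 0.89 within groups). Ranking by Spearman's rho kept 0 of 5 of these genes for Esm1, 2 for Mmp10, 1 for Slc17a6, 3 for Pdzk1 and 2 for Jaml, so the order of such lists over 12 arrays is loose.

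Of the 25 places, 3 were held by genes on the chromosome of the gene they resemble. Cd160 is the gene next to Pdzk1 on chromosome 3 among named genes on the array, Ccno is 4 places from Esm1 on chromosome 13, and Cldnd2 is 171 places from Slc17a6 on chromosome 7. Cd160 and Pdzk1 are read from opposite strands, away from each other, and the first RefSeq starts lie 714 bases apart, at 96829351 and 96830065 of chromosome 3 (GRCm38.p6). Apart from likeness, the 3 nearest genes on each side were taken for each of the 5, 30 in all, of which 21 were bright enough to test. In limma 1 of the 21, Cd160, passed for Teff over Treg in Ctrl cells (2.96 ± 0.39, adjusted p = 0.00657, every Teff above every Treg array), beside 1.01% of all genes. None of the 21 passed in CKO cells, where Cd160 gave 1.48 ± 0.39 (adjusted p = 0.159), or in a genotype comparison, with or without pairs.

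Gzmk, the granzyme gene before Esm1, had 7.57 ± 1.18 in CKO Teff, 7.55 ± 0.41 in Ctrl Teff, 5.55 ± 0.40 in CKO Treg and 6.08 ± 0.50 in Ctrl Treg (SD, n = 3 each). Its difference between Teff and Treg was 2.02 ± 0.51 in CKO cells and 1.47 ± 0.51 in Ctrl cells (limma adjusted p = 0.135 and 0.300). Snx18 and Ndufs4, after Esm1, differed between Teff and Treg by 0.19 and 0.03 in CKO cells and by −0.65 and −0.16 in Ctrl cells. Mmp10 sits among other metalloproteinase genes, and there Mmp1a had 5.18 ± 0.22 in CKO Teff, 5.43 ± 0.37 in Ctrl Teff, 5.19 ± 0.06 in CKO Treg and 5.11 ± 0.13 in Ctrl Treg. Mmp3 and Mmp8 stayed near the array medians (4.57 to 4.68 in all groups), and Mmp1b was too dim to test. Jaml lies beside Cd3e, Cd3d and Cd3g, which encode chains of the T cell receptor complex and differed between Teff and Treg by −0.16, 0.10 and 0.02 in CKO cells and by −0.07, −0.14 and −0.25 in Ctrl cells. Of the 6 neighbours of Slc17a6, 1 was bright enough to test.

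The families around the genes were read from lists chosen with earlier results of these arrays known. Among 31 metalloproteinases and inhibitors other than Mmp10, 27 were on the array and 21 were tested, and 0 passed in any of the 5 comparisons without pairs. In CKO cells the smallest p for Teff against Treg was that of the inhibitor gene Timp2, at −1.53 ± 0.53 (limma adjusted p = 0.303), followed by Timp1 at 1.68 ± 0.63 (adjusted p = 0.352). In Ctrl cells it was that of Timp1, at 2.40 ± 0.63 (limma adjusted p = 0.132), followed by Reck, a membrane-bound inhibitor, at 0.45 ± 0.16 (adjusted p = 0.303). Reck had −0.11 in CKO cells, and Timp2 had −1.08 in Ctrl cells. The median of the 21 was 0.06 in CKO cells and 0.01 in Ctrl cells, against −0.03 and −0.01 for all genes. Unadjusted p was under 0.05 for 2 of 21 in each, beside 10.8% of all genes in CKO cells and 10.4% in Ctrl cells. Mmp13, a collagenase, had the smallest p between genotypes, −1.40 ± 0.60 in Teff and −1.69 ± 0.60 in Treg (adjusted p = 1.00 and 0.679). With pairs Mmp13 passed in Treg, lower in CKO by −1.72, −1.24 and −2.12 (limma adjusted p = 0.00887), as 1 of 21 genes beside 2.18% of all genes, and not in Teff (adjusted p = 0.0611).

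Glutamate carriers and enzymes gave 16 tested genes of 22 on the array, and 0 passed in any comparison, with or without pairs. For Teff against Treg 2 of 16 had an unadjusted p under 0.05 in each genotype, against the 10.8% and 10.4% of all genes above. Slc17a5, the lysosomal sialic acid exporter of the same family, was the nearest, with −0.61 ± 0.18 in CKO cells and −0.62 ± 0.18 in Ctrl cells (limma adjusted p = 0.217 and 0.199), opposite in sign to Slc17a6. Glud1, glutamate dehydrogenase, came next in Ctrl cells with −0.45 ± 0.16 (adjusted p = 0.323). The median was −0.06 in CKO cells and 0.01 in Ctrl cells.

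Partners of PDZK1 gave 11 tested genes of 18 on the array, and 1 passed, for Teff against Treg in Ctrl cells, beside 1.01% of all genes. Pdzk1ip1, which encodes MAP17, a small membrane protein that binds PDZK1, was lower in Teff in Ctrl cells by −3.62 ± 0.58 (limma adjusted p = 0.0159). It had 8.27, 7.64 and 5.98 in CKO Teff, 5.71, 4.70 and 5.05 in Ctrl Teff, 7.18, 8.36 and 7.44 in CKO Treg, and 8.18, 9.59 and 8.54 in Ctrl Treg. So the partner was highest where Pdzk1 was lowest, in Ctrl Treg, and the 2 CKO cell types overlapped, with a difference of −0.36 ± 0.58 that did not pass. Its genotype difference was 2.14 ± 0.58 in Teff and −1.11 ± 0.58 in Treg, the reverse in sign of those of Pdzk1 (adjusted p = 0.968 and 1.00, and 0.0568 and 0.130 with pairs). CKO Teff 1 and 2, which were rich in basophil and neutrophil markers, were its highest Teff arrays, and the part of those markers in its value was not tested. The Ctrl call was lost without Ctrl Teff 2 (adjusted p = 0.0614) or Ctrl Treg 2 (adjusted p = 0.0814).

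Junctional adhesion molecules and integrins around Jaml gave 13 tested genes of 20 on the array, and 0 passed without pairs, with 3 of 13 at an unadjusted p under 0.05 for Teff against Treg in each genotype (10.8% of all genes in CKO cells and 10.4% in Ctrl cells). Cd99l2 came nearest, −0.72 ± 0.15 in Ctrl cells (limma adjusted p = 0.0528), then Itgal, the alpha chain of LFA-1, with 1.22 ± 0.30 (adjusted p = 0.106). Between genotypes 4 of 13 had an unadjusted limma p under 0.05 in Teff and 1 of 13 in Treg, beside 4.17% and 5.33% of all genes. In Teff these were Pecam1 and Igsf5, higher in CKO, and Cd99l2 and Itgb2, lower in CKO. With pairs Cd99l2 passed in Treg as 1 of 13 (2.18% of all genes), lower in CKO by −1.14, −0.69 and −0.35 (limma adjusted p = 0.0492, and 0.165 without pairs). Itgal is also the endocan receptor in a list of 20 ligands, inducers and proteoglycans around Esm1, of which 19 were on the array and 16 were tested. There 0 passed between Teff and Treg, with Gpc1, a glypican, at 1.69 ± 0.42 in Ctrl cells (limma adjusted p = 0.114). In CKO cells Chst11 had the smallest p, at 1.05 ± 0.25 (limma adjusted p = 0.114). Unadjusted p was under 0.05 for 6 of 16 in CKO cells and 5 of 16 in Ctrl cells, beside 10.8% and 10.4% of all genes. The median of the 16 was 0.39 in CKO cells and 0.08 in Ctrl cells, against −0.03 and −0.01 for all genes. Without pairs 1 passed between genotypes, in Treg, beside 0.0990% of all genes. Hif1a, the hypoxia-inducible factor, was higher in CKO Treg than in Ctrl Treg by 1.23 ± 0.16 (adjusted p = 0.0164), with 8.52, 8.33 and 8.37 in CKO Treg against 7.41, 6.83 and 7.31 in Ctrl Treg. It was 7.59 to 7.95 in CKO Teff and 7.68 to 7.72 in Ctrl Teff. That call was lost without CKO Treg 1, 2 or 3 (adjusted p = 0.122, 0.0879 and 0.0882), with trended and robust variances (0.0552), or with the 6 Treg arrays fitted alone (0.0606). With pairs 2 of 16 passed in Treg (2.18% of all genes), Hif1a (adjusted p = 0.00522) and Icam1, an adhesion ligand of LFA-1, which was lower in CKO by −0.82, −1.17 and −1.07 (limma adjusted p = 0.0334, and 0.888 without pairs).

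Endothelial, neuronal and epithelial markers averaged near the array medians, with single members above them. Neutrophil markers and those of macrophages and dendritic cells did not, averaging at least 5.94 and 5.71 on every array. Endothelial markers, 15 of 16 on the array, averaged 4.83 to 5.05 in CKO Teff, 4.72 to 4.84 in Ctrl Teff, 4.81 to 4.86 in CKO Treg and 4.69 to 4.75 in Ctrl Treg. The defining ones did not exceed 4.89 for Cdh5, 5.16 for Kdr and 4.91 for Tek on any array, while Pecam1 and Egfl7, which leukocytes share, reached 8.41 and 7.10. Neuronal markers, 10 of 10 on the array, averaged 4.58 to 4.70 in Teff and 4.52 to 4.61 in Treg, with Snap25 at most 4.76. Elavl4 and Syn1 reached 5.57 and 5.39, and Elavl4 averaged 5.35 in CKO Teff, 5.34 in Ctrl Teff, 4.66 in CKO Treg and 5.07 in Ctrl Treg. Epithelial markers, 13 of 14, averaged 4.59 to 4.79 in Teff and 4.61 to 5.24 in Treg, with Epcam at most 4.66, while Lgals4 reached 7.40, Car1 7.38, Krt8 6.29 and Krt18 5.74. Fibroblast markers, 12 of 12, averaged 5.18 to 5.27 in Teff and 5.15 to 5.26 in Treg, where Thy1, which T cells express, gave 11.6 to 12.7 and Col1a1 at most 4.74.

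Markers of CD8 and natural killer cells, 9 of 9 on the array, were the list of another cell type that separated the groups as the 5 genes did, with 5.67 to 7.49 in Teff against 5.13 to 5.54 in Treg. Within it Cd8a and Ncr1 lay at or below the median of every array, Cd8b1 read 8.45 to 10.02 on every array, and Klra7, Klre1 and Klrd1 reached 10.8, 10.3 and 10.3. Of its 7 tested genes 1 was called higher in Teff in CKO cells (0.182% of all genes) and 0 in Ctrl cells (0.413%). In CKO cells 5 of 7 had an unadjusted p under 0.05, with a median difference of 1.11, and in Ctrl cells 1 of 7 did, with a median of 0.05. The list's part in the values of the 5 genes was not tested. Its highest arrays were CKO Teff 2 and CKO Teff 1, and its r within groups was −0.38 with Esm1, −0.24 with Mmp10, 0.33 with Slc17a6, −0.02 with Pdzk1 and 0.54 with Jaml. B cell markers, 5 of 8, averaged at most 4.69. Macrophage and dendritic cell markers, 10 of 12, averaged 5.71 to 8.15 in Teff and 6.49 to 7.41 in Treg. The median genotype difference of this list in Teff was 1.38, against −0.02 for all genes, with 7 of 8 tested genes positive. In Teff 4 of 8 had an unadjusted limma p under 0.05, beside 4.17% of all genes, and 0 passed without pairs. In Treg the median was 0.35, with 5 of 8 positive. With pairs 1 of the 8, Cd74, the invariant chain of MHC class II, was higher in CKO Teff (1.85, limma adjusted p = 0.00821), beside 0.0990% of all genes. The part of this shift in the values of the 5 genes was not tested. Gamma delta markers, of which 3 of 7 were on the array, were highest in CKO Teff 2 at 5.96. Without the 3 marker-rich arrays, Teff exceeded Treg by 3.60 in CKO cells and 3.09 in Ctrl cells for Esm1, by 2.20 and 2.94 for Mmp10, and by 0.85 and 2.68 for Pdzk1, with 1 CKO Teff array left.

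**Figure D4:**
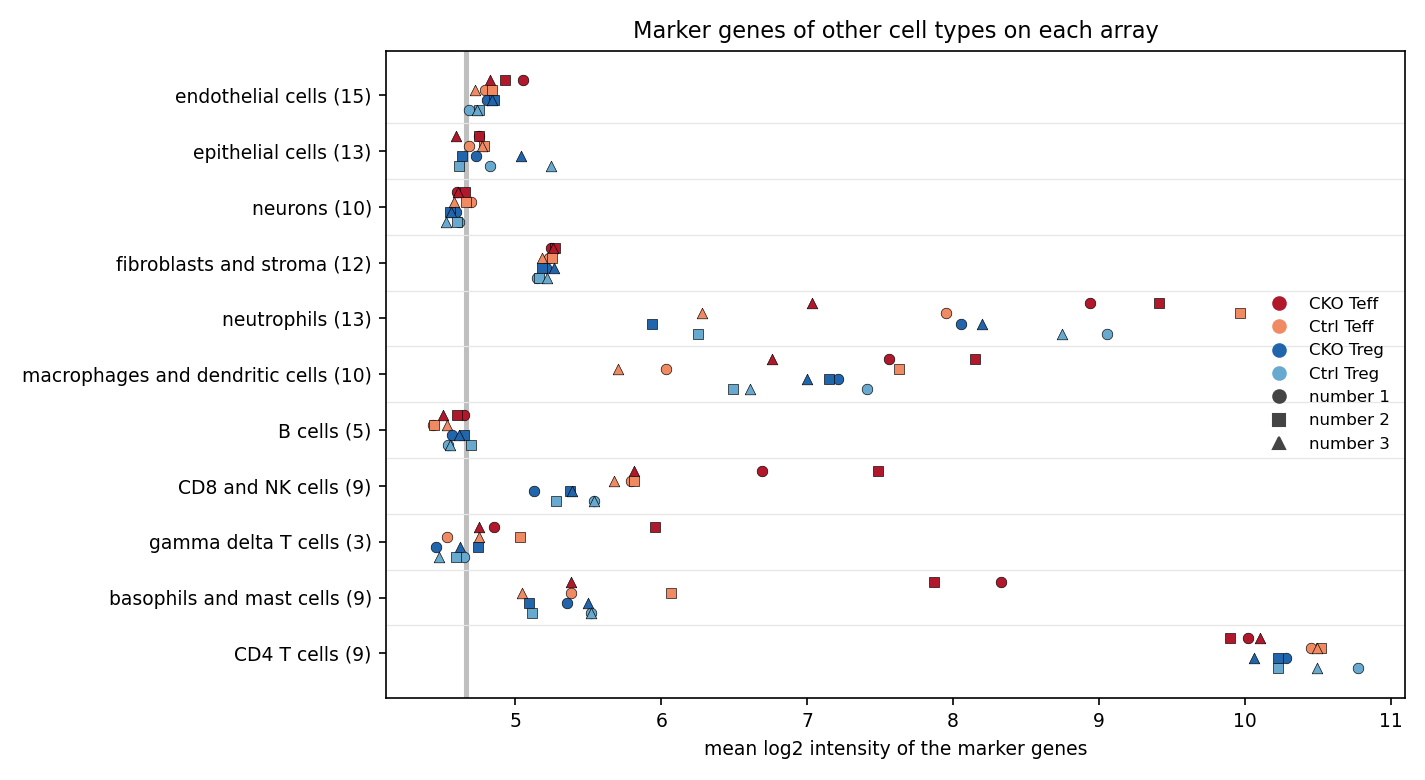
Mean log2 intensity (horizontal axis) of the marker genes of 11 cell types on each array, with the number of markers on the array in brackets; colours are groups, symbols replicate numbers and the grey band the range of array medians. Endothelial and neuronal markers reach 5.05 and 4.70 and epithelial ones 5.24. Neutrophil markers lie above the array medians on every array, from 5.94 to 9.97, and basophil markers are highest on CKO Teff 1 and 2.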

How the data were processed

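The 12 arrays are Illumina bead arrays of biotin-labelled RNA, 3 for each group that the sample titles give. The authors deposited log2 intensities, from 4.09 to 14.98, made with GenomeStudio and limma 3.30.11 per the submitters' processing notes. How they were background corrected, normalized or filtered is not stated there, and the values were used as deposited. The number of arrays limits the precision. Genes were named through the platform annotation, in which 28197 of 31641 probes have 1 symbol, 5 have several and 3439 have none. A probe was kept if it exceeded its array's median on at least 3 arrays (17579 probes), and a gene was read from its kept probe of highest mean.

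Group means were fitted to all 12 arrays in R 4.3.3 by lmFit and eBayes of limma 3.58.1 (two-sided, Benjamini-Hochberg adjusted over 12119 genes, threshold 0.05), after the code was tested on simulated data. Deviations from group means correlated between same-numbered CKO and Ctrl arrays (r = 0.348, 0.733 and 0.737 in Teff, and 0.545, 0.519 and 0.589 in Treg), so these arrays were also paired. Same-numbered Teff and Treg arrays had r of 0.092, −0.266 and 0.265 in Ctrl cells and 0.325, 0.041 and 0.312 in CKO cells. Whether numbers pair these arrays is thus unclear, and they were paired only in an alternative, the replicate block over all arrays. The genes and lists were chosen with earlier results of these data known. The other genes named are the 5 of highest Pearson r with each gene, its 3 nearest neighbours on each side, and list genes that passed or had the smallest p. Alternatives were another dim-probe filter, the mean of a gene's probes, array weights, trended and robust variances, replicate blocks, the compared arrays alone and each array left out. Leaving out 3 Teff arrays together was chosen after seeing the data.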

Additional observations from a re-analysis of the deposited data

Results flagged for a closer look

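The genotype difference of Pdzk1 went opposite ways in the 2 cell types. CKO was below Ctrl in 3 of 3 Teff pairs and above it in 3 of 3 Treg pairs, and the Teff difference minus the Treg difference was −1.55 ± 0.42 (SE, n = 3 arrays a group). A limma test of that difference gave an unadjusted p of 0.00359 and an adjusted p of 1.00, and 0.133 with pairs. Over the alternatives it ran from −1.83 to −1.17. Of all genes, 2.86% were likewise lower in 3 of 3 Teff pairs and higher in 3 of 3 Treg pairs. Pdzk1 was chosen for Teff over Treg on the same arrays, so its difference of differences is not independent of that choice. It equals the Teff-over-Treg difference in CKO cells (1.06) minus that in Ctrl cells (2.61). A choice resting more on Ctrl cells would by itself push it below 0, so the p-values above are not read as support.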

How the results depend on the processing

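Of the differences of the 5 genes between Teff and Treg, 218 values under an alternative moved by less than the spread between replicates, or not at all. The 2 exceptions were Pdzk1 in Ctrl cells, 1.97 over the mean of its probes, and Slc17a6 in CKO cells, 1.35 without the 3 Teff arrays. Of the genotype differences, 326 kept their sign and their side of the threshold and 14 turned. Many alternatives could not move an estimate in either count. Other variance estimates, balanced replicate blocks, the compared arrays alone and leaving out an array outside the comparison all keep the same differences of means. The counts therefore do not measure how stable the values are. The sign turned without the 3 Teff arrays for Esm1 (0.21) and Mmp10 (0.031) in Teff, and over the mean of probes for Slc17a6 in Treg (−0.067). With single arrays left out it turned for Esm1 in Teff (0.10 without CKO Teff 2 and 0.01 without Ctrl Teff 1), Mmp10 in Teff (0.06 and 0.46), Jaml in Teff (−0.19 and −0.12), Esm1 in Treg (0.13 without Ctrl Treg 3), Slc17a6 in Treg (−0.12 and −0.10, for the number 2 array of either genotype), and the Esm1 difference of differences (−0.01 without CKO Teff 3 and −0.27 without Ctrl Treg 3). Over single arrays left out, these values ran from −0.31 to 0.10 for Esm1, −0.43 to 0.46 for Mmp10 and −0.19 to 0.69 for Jaml in Teff, from −0.53 to 0.13 for Esm1 in Treg, and from −0.27 to 0.40 for its difference of differences. The causes were not tested.

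Counts of genes past the threshold were unstable. With the replicate block within cell type they were 12 in Teff, 264 in Treg and 5 for the difference of differences, against 2, 12 and 2 without it. With the block over all arrays they were 44 in Treg, 1 for the difference of differences, and for Teff against Treg 250 in CKO cells and 333 in Ctrl cells, against 43 and 123 in the fit reported. The pairing changed no call of the 5 genes, and of the listed genes it added Mmp13, Cd99l2 and Icam1 in Treg and Cd74 in Teff. The stricter filter gave 1 in Teff, 0 for the difference of differences and 82 for the cell types in CKO cells. Trended, robust variances gave 4 and 86 for these last 2, and array weights gave 34 in Treg, 245 in CKO and 247 in Ctrl cells. The 6 compared arrays alone gave 0 in Teff, 25 in Treg, 4 in CKO and 29 in Ctrl cells, and leaving out the 3 Teff arrays gave 0, 35, 0 for the difference of differences and 3 in CKO cells. With 1 array left out the counts ran from 0 to 52 in Teff, 5 to 17 in Treg, 0 to 22 for the difference of differences, 16 to 259 in CKO cells and 44 to 163 in Ctrl cells. The highest counts in Teff, for the difference of differences and in CKO cells came without CKO Teff 3.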
